A study of Homo sapiens and Mus musculus with 16 samples.

Results

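Mitochondrial ribosomal protein genes were followed between P-bodies and a cytoplasmic fraction in 4 cell types. The genes were taken by name, as every symbol made of MRPL or MRPS, a number and at most a letter from A to C. This gave 78 of 22286 symbols in the human count table and 78 of 15881 in the mouse table. The series held 16 libraries, 2 from sorted P-bodies and 2 from cytoplasm for each cell type. P-bodies were made visible with GFP-LSM14A, a fluorescent copy of a P-body core protein, and sorted by flow cytometry from a cytoplasmic preparation, an aliquot of which served as the cytoplasm sample. All 16 libraries therefore came from cells that carried the fusion protein. The study describes the cytoplasmic preparation as a pellet, spun down after nuclei were removed and then resuspended. The aliquot was taken before sorting, so the samples called cytoplasm here still held P-bodies and lacked what stayed in solution. The human cells were HEK293T, a transformed embryonic kidney line, and liver bud progenitors and neurons at day 20 differentiated from UCLA4 embryonic stem cells. The mouse embryonic stem cells were of the line KH2, grown in serum with LIF. The study describes the fusion as delivered by lentivirus under an EF1a promoter in HEK293T and mouse cells and placed at the AAVS1 locus in UCLA4. HEK293T and mouse libraries were labelled total RNA and the libraries of both differentiated cell types polyA RNA, so RNA type and cell type cannot be told apart in any comparison of HEK293T with the other human cells.

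The mitochondrial ribosome translates the few messenger RNAs that are encoded in mitochondrial DNA, all of them for subunits of the oxidative phosphorylation machinery. Its RNAs come from mitochondrial DNA, but all of its proteins are encoded in the nucleus, translated on cytosolic ribosomes and imported. Some have counterparts in bacterial ribosomes, while others were added during the evolution of mitochondria. P-bodies are cytoplasmic condensates of RNA-binding proteins and messenger RNAs that are translated little or not at all.

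Total counts ranged from 6368953 to 17972284 per library. The 78 genes took a small share of the counts, from 0.0854% in a neuron P-body library to 0.332% in an HEK293T cytoplasm library, and the median gene had between 46 and 270 counts in a library. Levels are given as CPM, the usual read count relative to library size, with library sizes scaled by the trimmed mean of M-values (TMM) within each cell type. The 2 neuron P-body libraries differed more from each other than any other pair, with a mean chi-square of 24.8 per gene against 2.15 to 6.69 in the other groups. All 7 neuron markers exceeded 20 CPM in neurons and all 6 stem cell markers did so in mouse cells. The neuron libraries also held neural progenitor markers, of which 3 of 4 reached 20 CPM. Those 4 summed to 706 and 765 CPM in P-bodies and 369 and 381 CPM in cytoplasm, beside 8560 and 8693 CPM in P-bodies for the neuron markers. In the liver bud libraries all 8 liver markers were above 1 CPM but only 1 of 8 in P-bodies and 3 of 8 in cytoplasm reached 20 CPM. There the 4 markers of human pluripotent cells summed to between 839 and 1121 CPM, while the 8 liver markers summed to between 178 and 385 CPM. The liver markers also summed to 224 CPM in HEK293T P-bodies and 252 CPM in neuron P-bodies, but to at most 121.5 CPM in cytoplasm of either. The part of pluripotent cells in the liver bud results, and of neural progenitors in the neuron results, was not tested. In bulk libraries fewer cells of a type and less RNA per cell cannot be told apart.

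All 78 genes had counts and were tested in every comparison. A gene was called enriched or depleted in P-bodies when its adjusted p was under 0.05 over all genes tested. The mean level of 37 of the 78 genes reached 20 CPM in HEK293T, while 19 did so for liver bud progenitors, 15 for mouse stem cells and 13 for neurons. Per transcript length, the highest levels in HEK293T cytoplasm were those of MRPS21 at 165 ± 19.2 (SD, n = 2), MRPS18A at 119 ± 8.48 and MRPL3 at 118 ± 12.7 reads per kilobase of transcript on the CPM scale. MRPS21, a small subunit protein, was also the highest in the cytoplasm of the other human cell types, at 54.4 ± 0.22 in liver bud progenitors and 72.4 ± 3.72 in neurons. The lowest in both differentiated cell types was MRPL54, at 0.432 ± 0.271 and 0.393 ± 0.323. MRPL54 had at most 3 counts in each liver bud cytoplasm library and at most 1 in each neuron P-body library, and MRPS28 had 3 in each neuron P-body library.

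**Figure D1:**
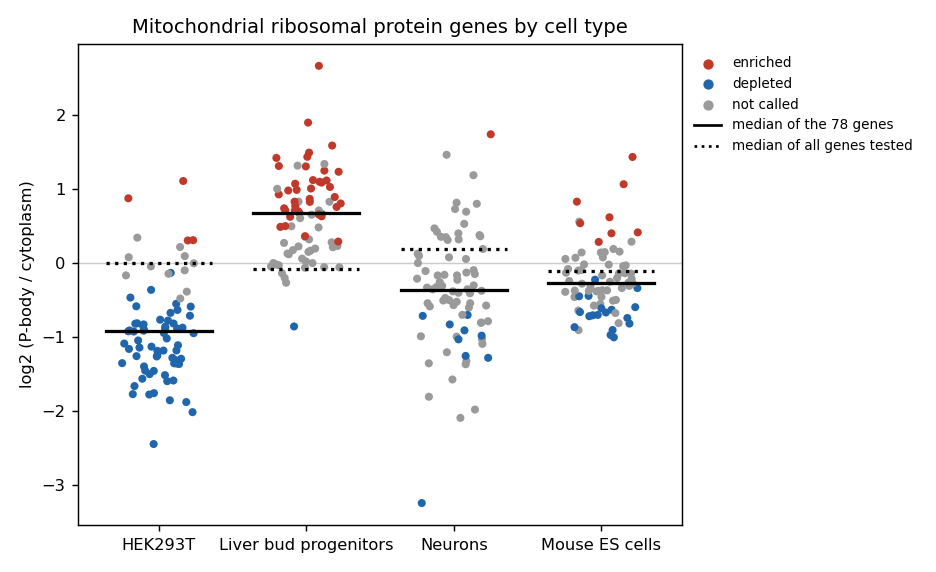
log2 ratio of P-body to cytoplasm level (vertical axis) of the 78 mitochondrial ribosomal protein genes, 1 point per gene, in 4 cell types. Colours mark genes called enriched, depleted or neither. Most HEK293T points lie below 0, with a median of -0.93, and most liver bud points above 0, with a median of 0.67.

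Coding sequence is shown for 4 genes that differ in base composition and in how they were distributed. Each line gives the last 90 coding bases before the stop codon of the human transcript, with every G and C in capitals, from GENCODE annotation on hg38. MRPL50 (chr9:101387633-101398618, minus strand) and MRPL1 (chr4:77862830-77952785, plus strand) had A+U-rich transcripts and were enriched in P-bodies of several cell types. MRPS18C (chr4:83455932-83469735, plus strand) was as poor in G+C, yet depleted in HEK293T. MRPL4 (chr19:10251901-10260055, plus strand) was rich in G+C and depleted in 3 cell types.
MRPL50: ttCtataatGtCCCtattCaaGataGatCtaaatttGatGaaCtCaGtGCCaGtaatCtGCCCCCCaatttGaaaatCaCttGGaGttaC
MRPL1: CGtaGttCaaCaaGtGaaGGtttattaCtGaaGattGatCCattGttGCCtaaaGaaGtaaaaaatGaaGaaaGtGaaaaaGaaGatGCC
MRPS18C: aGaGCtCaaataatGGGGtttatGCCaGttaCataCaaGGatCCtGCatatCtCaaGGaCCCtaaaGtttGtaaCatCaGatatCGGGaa
MRPL4: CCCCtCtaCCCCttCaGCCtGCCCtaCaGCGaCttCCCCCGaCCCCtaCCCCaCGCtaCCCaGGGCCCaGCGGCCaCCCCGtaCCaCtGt
G and C made up 36.7% of the window in MRPL50, 33.3% in MRPL1, 40.0% in MRPS18C and 70.0% in MRPL4. Over the whole transcript they made up 35.01%, 36.9%, 36.8% and 63.6%, respectively.

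In HEK293T, most mitochondrial ribosomal protein messenger RNAs were lower in P-bodies. Of the 78 genes, 63 were depleted and 4 were enriched, where 22.8% of all 21903 genes tested were depleted and 19.3% enriched. The median log2 ratio of the 78 was -0.93, against -0.01 over all genes tested. Summed over the 78 genes, the level was 2091 ± 29.1 CPM in P-bodies and 3157 ± 9.86 CPM in cytoplasm (SD, n = 2). Both subunits were affected, with 24 of 29 large subunit proteins that have a bacterial counterpart and 15 of 16 such small subunit proteins depleted. Proteins without a bacterial counterpart followed, with 16 of 22 in the large and 8 of 10 in the small subunit depleted. The 11 genes that did not pass the test were MRPL9, MRPL19, MRPL32, MRPL41, MRPL44, MRPL45, MRPL57, MRPS5, MRPS27, MRPS35 and MRPS36.

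At a mean level of 20 CPM or more, the 5 most depleted genes were MRPS16, MRPS18C, MRPL40, MRPL20 and MRPL38. MRPS16, counterpart of bacterial protein S16, stood at 20.3 and 19.4 CPM in the P-body libraries and at 76.4 and 70.2 CPM in cytoplasm. Its log2 ratio was -1.88 ± 0.11 (SE, adjusted p = 1.63e-23), and the fractions were far apart. MRPS18C, at 16.3 and 20.2 CPM in P-bodies and 57.4 and 53.9 CPM in cytoplasm, had a log2 ratio of -1.60 ± 0.12 (adjusted p = 2.34e-18). MRPL40 and MRPL38 belong to the central protuberance of the large subunit, a part built largely of proteins that bacteria lack. MRPL40 stood at 12.2 and 14.3 CPM in P-bodies and 37.4 and 38.0 CPM in cytoplasm, a log2 ratio of -1.51 ± 0.13. MRPL38 stood at 11.9 and 10.5 CPM in P-bodies and 26.5 and 31.2 CPM in cytoplasm, a log2 ratio of -1.37 ± 0.15. For MRPL20, counterpart of a bacterial protein that binds early in ribosome assembly, values were 14.1 and 16.0 CPM against 42.1 and 40.9 CPM, a log2 ratio of -1.46 ± 0.13. That no P-body library overlapped a cytoplasm library was a condition for naming these 5 genes.

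MRPL50, MRPL1, MRPS30 and MRPL35 were the 4 genes enriched in HEK293T P-bodies. All 4 were also enriched in liver bud progenitors, where 40 of the 78 genes were. MRPL50, a large subunit protein without a bacterial counterpart, stood at 119 and 121 CPM in P-bodies and at 57.8 and 53.8 CPM in cytoplasm. Its log2 ratio was 1.11 ± 0.08 (adjusted p = 1.06e-18), the highest of the 78 genes in these cells. MRPL1 forms part of the mobile stalk through which spent tRNA leaves the ribosome. It stood at 27.2 and 31.6 CPM against 16.8 and 15.4 CPM, a log2 ratio of 0.87 ± 0.14 (adjusted p = 2.07e-07). MRPS30 lies in the large subunit despite its name. It had 32.6 and 29.8 CPM in P-bodies and 26.9 and 23.6 CPM in cytoplasm, a log2 ratio of 0.30 ± 0.13 (adjusted p = 0.0454). MRPL35 had 58.8 and 59.1 CPM against 50.6 and 45.03 CPM, a log2 ratio of 0.30 ± 0.10 (adjusted p = 0.00686). In all 4 genes the fractions did not overlap, but the differences in MRPS30 and MRPL35 were small. The call of MRPS30 was lost without P-body replicate 1 (log2 0.24), P-body replicate 2 (0.37) or cytoplasm replicate 2 (0.22), and that of MRPL35 without P-body replicate 2 (0.30) or cytoplasm replicate 2 (0.23). The liver bud call of MRPS30 was lost with DESeq2 (log2 0.47, adjusted p = 0.119), library size scaling (0.30), the single fit of all human libraries (0.46), and without liver bud P-body replicate 1 (0.41) or cytoplasm replicate 1 (0.43). Without P-body replicate 2 or cytoplasm replicate 2, 2 of the 78 genes were enriched rather than 4.

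In liver bud progenitors the direction was the opposite. Of the 78 genes, 40 were enriched in P-bodies and 1 was depleted, beside 21.4% of all 21951 genes tested enriched and 17.1% depleted. The median log2 ratio was 0.67, against -0.09 over all genes tested. The 78 genes summed to 1739 ± 9.90 CPM in P-bodies and 1180 ± 4.19 CPM in cytoplasm. Enrichment was called for 19 of 29 large subunit proteins with a bacterial counterpart and for 9 of 22 without one. In the small subunit it was called for 4 of 16 with a bacterial counterpart and for 7 of 10 without one. DESeq2 called 26 of the 78 genes enriched and the same number depleted as edgeR, 1. Scaling by library size alone left 30 enriched and 2 depleted. Over all genes the enriched calls went from 4708 to 3702 with DESeq2 and to 3822 with library size scaling.

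At a mean level of 20 CPM or more, the 5 most enriched genes were MRPL51, MRPL35, MRPS18C, MRPL45 and MRPL50. MRPL51, a large subunit protein without a bacterial counterpart, stood at 31.7 and 35.3 CPM in P-bodies and 15.1 and 13.3 CPM in cytoplasm. Its log2 ratio was 1.25 ± 0.15 (adjusted p = 2.05e-10), whereas in HEK293T it was -0.68 ± 0.12. MRPL35 rose to 41.9 and 37.9 CPM in P-bodies from 18.2 and 18.7 CPM in cytoplasm, a log2 ratio of 1.11 ± 0.14. For MRPS18C the values were 34.0 and 25.3 CPM against 17.3 and 10.9 CPM, a log2 ratio of 1.08 ± 0.17 (adjusted p = 1.82e-07), so that a gene among the most depleted in HEK293T was among the most enriched here. MRPL45 sits at the exit tunnel and anchors the ribosome to the inner mitochondrial membrane. It stood at 61.7 and 62.0 CPM in P-bodies and 28.8 and 30.1 CPM in cytoplasm, a log2 ratio of 1.07 ± 0.11. MRPL50 had 32.3 and 31.8 CPM against 14.5 and 17.3 CPM, a log2 ratio of 1.00 ± 0.15, near its value in HEK293T. Fractions without overlap were again a condition for naming these 5 genes.

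MRPS25, a small subunit protein without a bacterial counterpart, was the 1 depleted gene and was named after its values were seen. It stood at 11.2 and 10.7 CPM in P-bodies and at 19.9 CPM in both cytoplasm libraries. Its log2 ratio was -0.86 ± 0.18 (adjusted p = 6.97e-05). It was depleted in neurons and HEK293T as well, with log2 ratios of -1.26 ± 0.29 and -0.72 ± 0.13, and enriched in mouse stem cells, at 0.40 ± 0.12. In the human and mouse genomes MRPS25 overlaps the counted gene NR2C2 on the other strand.

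**Figure D2:**
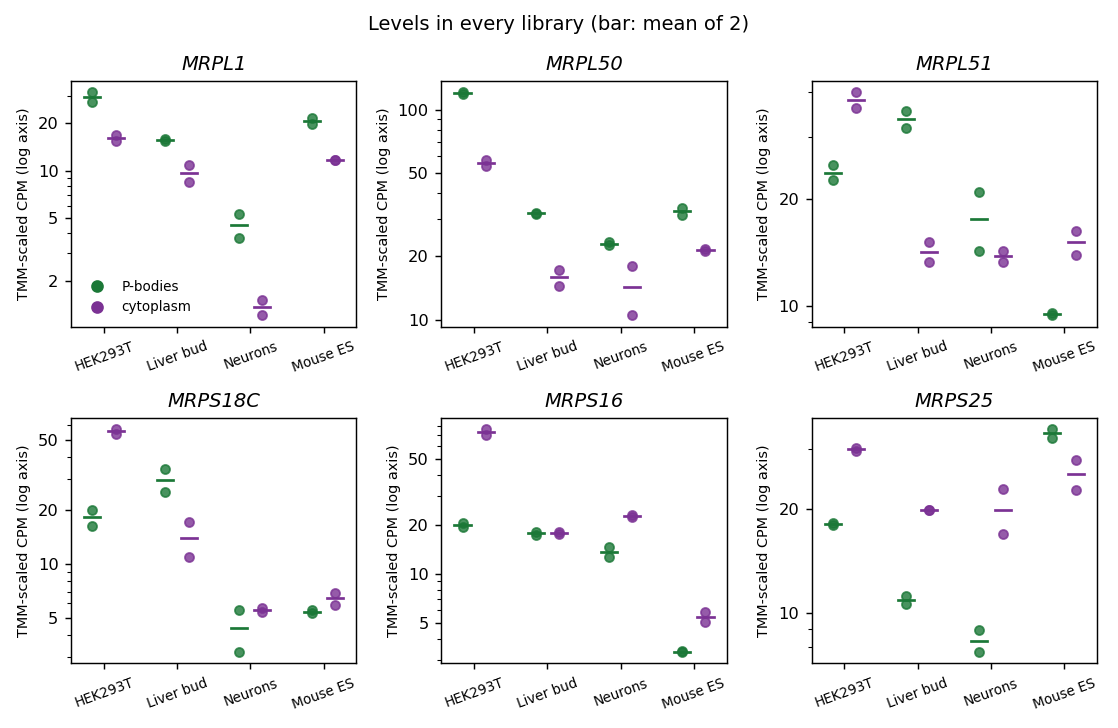
Level in TMM-scaled CPM (log axis) of 6 genes in every library, with P-bodies in green and cytoplasm in purple, and a bar at the mean of 2 libraries. P-body points of MRPL1 and MRPL50 lie above cytoplasm in all 4 cell types. MRPL51 and MRPS18C are lower in HEK293T P-bodies and higher in liver bud P-bodies.

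In neurons few of the 78 genes passed the test. 1 was enriched and 9 were depleted, where 14.6% of all 22093 genes tested were enriched and 14.1% depleted. The median log2 ratio was -0.37, against 0.19 over all genes tested. With filterByExpr, a stricter filter on low counts, the medians were -0.23 and -0.01, so the gap shrank from -0.56 to -0.23. The 78 genes summed to 830 ± 23.3 CPM in P-bodies and 997 ± 20.2 CPM in cytoplasm. Levels were low, with 65 of 78 genes under a mean of 20 CPM, and the other 68 genes had log2 ratios that did not pass the test. The counts moved with single libraries, as did those of all genes. Without P-body replicate 1 there were 5 enriched and 15 depleted genes, without P-body replicate 2 there were 5 and 17, and without either cytoplasm library there were 0 and 4. With all human libraries in a single fit, which shares the spread across cell types, 6 were enriched and 28 depleted. Over all genes, 3220 enriched and 3123 depleted became 4394 and 4433 without P-body replicate 1, 4228 and 4231 without replicate 2, 2109 and 1892 without cytoplasm replicate 1, 2286 and 2135 without replicate 2, and 4407 and 4952 in the single fit. Library size scaling gave 4 enriched and 6 depleted, and 3839 and 2356 over all genes.

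MRPL49, MRPS18A, MRPS11 and MRPL43 were the depleted genes whose mean level reached 20 CPM. MRPL49, a large subunit protein, stood at 12.8 and 18.6 CPM in neuron P-bodies and 35.4 and 29.1 CPM in cytoplasm, a log2 ratio of -1.04 ± 0.24 (adjusted p = 0.00542). MRPS18A, found in the large subunit, stood at 29.7 and 20.6 CPM against 44.9 and 54.6 CPM, a log2 ratio of -0.99 ± 0.21 (adjusted p = 0.00273). MRPS11, counterpart of bacterial S11, stood at 15.9 and 27.6 CPM against 40.4 and 41.8 CPM, a log2 ratio of -0.91 ± 0.24 (adjusted p = 0.0116). MRPL43 stood at 15.9 and 21.0 CPM against 33.7 and 26.5 CPM, a log2 ratio of -0.71 ± 0.23 (adjusted p = 0.0365). Cytoplasm was higher in every library of these 4 genes, which was a condition for naming them. The call of MRPL49 was lost without cytoplasm replicate 1 (log2 -0.90), and that of MRPL43 without cytoplasm replicate 1 (-0.54) or replicate 2 (-0.89). The other depleted genes were MRPS16, MRPS25, MRPL2, MRPL37 and MRPL4, and all 9 were depleted in HEK293T as well. The neuron calls of MRPS16 and MRPL37 were lost with DESeq2, RLE factors or library size scaling, and without cytoplasm replicate 1 (log2 -0.71 and -0.88) or replicate 2 (-0.76 and -0.82). Those of MRPS25 and MRPL4 were lost without cytoplasm replicate 2 (-1.04 and -1.16). MRPL2 had the lowest ratio and was named after its values were seen. It had 5 and 2 counts in P-bodies and 45 and 30 in cytoplasm, a log2 ratio of -3.25 ± 0.84 (adjusted p = 0.0105). It overlaps KLC4 on the other strand.

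MRPL1 was the 1 gene enriched in neurons and the only one of the 78 enriched in all 4 cell types. In neurons it stood at 3.75 and 5.34 CPM in P-bodies and at 1.51 and 1.20 CPM in cytoplasm, from 12 to 54 counts per library. Its log2 ratio was 1.74 ± 0.61 (adjusted p = 0.0483). The call was lost with DESeq2, with the replicate number as a block (log2 1.72), and without P-body replicate 2 (1.46), cytoplasm replicate 1 (1.90) or cytoplasm replicate 2 (1.57), although the ratio stayed above 0. In liver bud progenitors MRPL1 stood at 15.5 and 15.9 CPM against 10.8 and 8.47 CPM, a log2 ratio of 0.71 ± 0.20 (adjusted p = 0.00329), and there the call was lost with DESeq2 (0.69) and without cytoplasm replicate 2 (0.49). In mouse stem cells it stood at 21.5 and 19.9 CPM against 11.7 CPM in both cytoplasm libraries, a log2 ratio of 0.83 ± 0.16 (adjusted p = 9.86e-05). MRPL50 was enriched in the other 3 cell types and had 22.6 and 23.4 CPM against 10.5 and 18.1 CPM in neurons, a log2 ratio of 0.69 ± 0.28 that did not pass the test (adjusted p = 0.0844). No gene was called depleted in all 4 cell types. MRPL2, MRPL4, MRPL37, MRPL43, MRPL49 and MRPS16 were depleted in HEK293T, neurons and mouse stem cells. With DESeq2 the neuron calls of MRPL37, MRPL43 and MRPS16 were lost (adjusted p = 0.0942, 0.0897 and 0.115), as were the mouse calls of MRPL4, MRPL37, MRPL43 and MRPS16 (adjusted p = 0.0774, 0.153, 0.0708 and 0.213). The mouse call of MRPL43 was also lost without P-body replicate 1 (log2 -0.62), and that of MRPS16 without P-body replicate 1 (-0.70), P-body replicate 2 (-0.69) or cytoplasm replicate 2 (-0.60).

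In mouse embryonic stem cells both directions occurred. Of the 78 genes, 8 were enriched and 18 depleted, where 25.8% of all 15881 genes tested were enriched and 20.6% depleted. The median log2 ratio was -0.28, against -0.11 over all genes tested. The 78 genes summed to 1154 ± 34.0 CPM in P-bodies and 1182 ± 13.98 CPM in cytoplasm, which overlapped between libraries. The split turned on the scaling. With library size alone, 3 were enriched and 52 depleted, but that scaling moved the median of all genes by -0.40 as well, and the median of the 78 genes relative to all genes was -0.16 against -0.17 in the main test. DESeq2 called 6 enriched and 7 depleted, and a stricter filter on low counts gave 28 depleted. Over all genes DESeq2 called 3381 enriched and 1803 depleted, against 4104 and 3271 in the main test. The stricter filter called 3424 of 12414 genes depleted. Without P-body replicate 1 the median log2 ratio of the 78 genes was -0.24, against -0.09 over all genes tested.

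Enriched genes whose mean level reached 20 CPM in mouse cells were Mrpl50, Mrps2, Mrps25 and Mrpl45. Mrps2, counterpart of bacterial S2, was abundant at 149 and 151 CPM in P-bodies and 106 and 101 CPM in cytoplasm. Its log2 ratio was 0.53 ± 0.06 (adjusted p = 3.63e-08), while in HEK293T MRPS2 stood at 9.05 and 8.995 CPM against 21.0 and 22.4 CPM, a log2 ratio of -1.26 ± 0.16. Mrpl50 had 31.6 and 34.2 CPM in P-bodies and 21.7 and 21.2 CPM in cytoplasm, a log2 ratio of 0.61 ± 0.12. Mrps25 had 34.2 and 32.3 CPM against 27.7 and 22.8 CPM, a log2 ratio of 0.40 ± 0.12 (adjusted p = 0.00879). For Mrpl45 the values were 101 and 108 CPM against 85.0 and 86.2 CPM, a log2 ratio of 0.28 ± 0.07 (adjusted p = 0.00116). P-body values lay above cytoplasm in all libraries of these 4 genes, which was a condition for naming them. With library size scaling Mrps2 and Mrpl50 fell short of the threshold (log2 0.13 and 0.21), and Mrpl45 and Mrps25 turned to -0.12 and -0.01. The highest ratio belonged to Mrpl32, named after its values were seen, at 22.1 and 20.0 CPM in P-bodies and 8.71 and 6.94 CPM in cytoplasm (log2 1.43 ± 0.17, adjusted p = 1.71e-07). Mrpl1, Mrpl47 (1.06 ± 0.20) and Mrps31 (0.41 ± 0.16) made up the 8. The call of Mrps25 was also lost with DESeq2 (log2 0.39, adjusted p = 0.077) and without P-body replicate 1 (0.36) or cytoplasm replicate 2 (0.26).

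Among the lower genes of mouse cells, Mrpl49 stood at 16.4 and 18.2 CPM in P-bodies and 26.0 and 27.0 CPM in cytoplasm, a log2 ratio of -0.62 ± 0.14 (adjusted p = 5.58e-04). Mrpl4, whose bacterial counterpart lines the exit tunnel, stood at 15.5 and 18.4 CPM against 22.0 and 24.3 CPM, a log2 ratio of -0.45 ± 0.15. Mrpl9 stood at 17.2 and 17.9 CPM against 24.3 and 23.6 CPM, a log2 ratio of -0.45 ± 0.14. These 3 genes were depleted, as were Mrpl37 at -0.34 ± 0.13 and Mrpl17 at -0.23 ± 0.07. Fractions without overlap were a condition for naming them. Without P-body replicate 1 the calls of Mrpl4, Mrpl9, Mrpl37 and Mrpl17 were lost, at log2 ratios of -0.34, -0.42, -0.40 and -0.15. Mrpl4 also lost its call without cytoplasm replicate 2 (-0.38), and Mrpl37 without P-body replicate 2 (-0.26) or cytoplasm replicate 1 (-0.27).

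**Figure D3:**
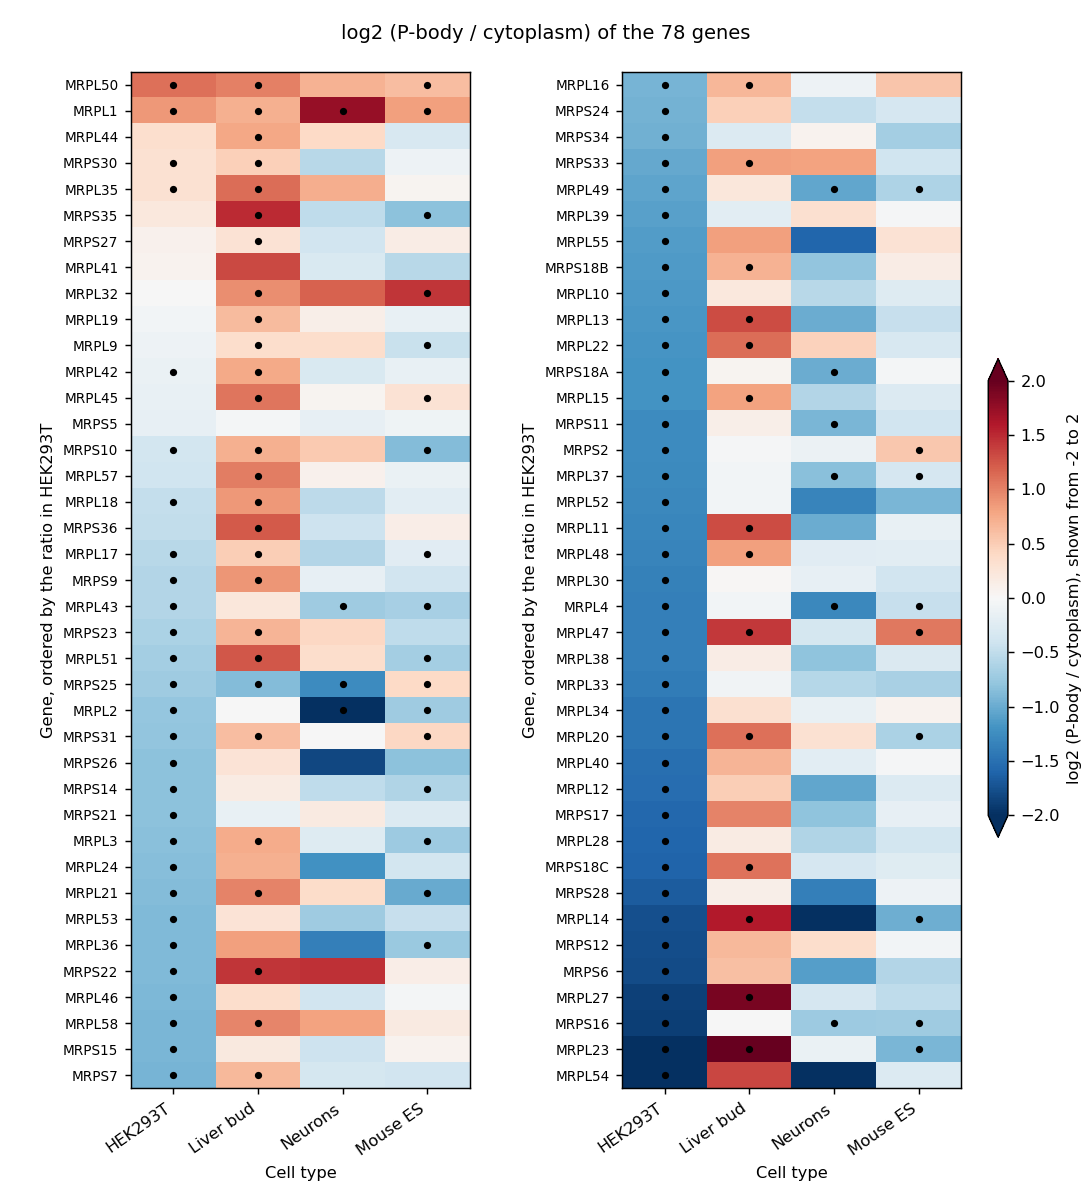
log2 ratio of P-body to cytoplasm level (colour, from -2 to 2) for each of the 78 genes (rows, ordered by the ratio in HEK293T) in 4 cell types (columns). Black dots mark calls at an adjusted p under 0.05. The HEK293T column is mostly blue with 63 depleted genes, and the liver bud column mostly red with 40 enriched genes.

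Differences between cell types were tested directly, as the interaction of fraction and cell type. Between HEK293T and liver bud progenitors, 61 of the 78 genes had a lower ratio in HEK293T, where 12.5% of all 22242 genes tested were lower and 15.0% higher. None of the 78 was called higher in HEK293T by edgeR or DESeq2, and 1 was higher at an unadjusted p under 0.05. The median difference was -1.16, against 0.21 over all genes tested. These 61 genes included 24 of 29 large subunit and 15 of 16 small subunit proteins with a bacterial counterpart. In 27 genes the calls were opposed, with depletion in HEK293T and enrichment in liver bud progenitors. Of the 78 genes, 63 were depleted in HEK293T and 40 enriched in liver bud progenitors, and opposed calls over all genes were not counted. MRPS18C showed the lowest difference where the mean level reached 20 CPM, at -2.46 ± 0.22 (adjusted p = 2.62e-13). MRPL13, counterpart of bacterial L13, differed by -2.24 ± 0.20 (adjusted p = 3.94e-13). It stood at 24.8 and 23.8 CPM in P-bodies and 58.2 and 50.8 CPM in cytoplasm of HEK293T, but at 25.2 and 21.7 CPM against 9.66 and 9.36 CPM in liver bud progenitors. MRPL51 differed by -1.70 ± 0.19 (adjusted p = 4.29e-10). RNA type differed between these cells as well and cannot be told apart from cell type.

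Neurons and liver bud progenitors were both labelled polyA RNA and came from the same stem cell line. Between them, 23 of the 78 genes had a lower ratio in neurons, where 8.50% of all 22268 genes tested were lower and 9.21% higher. None was called higher in neurons by edgeR or DESeq2, nor at an unadjusted p under 0.05, and DESeq2 called 13 lower. The median difference was -0.95, against 0.23 over all genes tested. MRPL17 differed by -1.09 ± 0.29 (adjusted p = 0.0177). In liver bud progenitors it stood at 32.4 and 33.9 CPM in P-bodies and 22.3 and 24.7 CPM in cytoplasm, and in neurons at 12.4 and 17.0 CPM against 25.0 and 18.9 CPM. MRPL42 differed by -1.07 ± 0.13 (adjusted p = 2.84e-05) and had the highest CPM of the 78 genes in each human cell type. Its liver bud values were 275 and 279 CPM in P-bodies and 168 and 161 CPM in cytoplasm, and its neuron values 89.6 and 106 CPM against 121 and 120 CPM. MRPS11 differed by -1.04 ± 0.31 (adjusted p = 0.0299).

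The call of MRPL42 held in every alternative run, while those of MRPL17 and MRPS11 were lost with library size scaling (-0.72 and -0.67). That of MRPS11 was also lost with DESeq2 (adjusted p = 0.0526) and filterByExpr (-0.89, adjusted p = 0.0599). The number of genes lower in neurons fell to 8 without liver bud P-body replicate 1, 9 without replicate 2, 10 without liver bud cytoplasm replicate 1 and 8 without replicate 2. It was 14 without neuron cytoplasm replicate 1 and 13 without replicate 2, and rose to 37 without either neuron P-body library. Lower calls over all genes moved the same way, from 1892 to between 1160 and 1234 without a liver bud library, to 1565 and 1611 without a neuron cytoplasm library, and to 3513 and 3628 without a neuron P-body library. Without any 1 of the 4 liver bud libraries, the log2 difference of MRPL17 lay between -1.16 and -1.02 and that of MRPS11 between -1.15 and -0.93, and both calls were lost. Both were also lost without neuron cytoplasm replicate 1 (-0.93 and -1.12), and MRPS11 without replicate 2 (-1.10).

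Between HEK293T and neurons, 8 genes had a lower and 2 a higher ratio in HEK293T, where 6.35% of all 22262 genes tested were lower and 6.19% higher. The median difference was -0.34, against -0.16 over all genes tested. MRPL30 differed by -1.06 ± 0.23 and MRPS16 by -1.02 ± 0.22, both being depleted in HEK293T. MRPS21 differed by -0.87 ± 0.14 (adjusted p = 7.25e-04), with 97.6 and 104 CPM in P-bodies and 164 and 194 CPM in cytoplasm of HEK293T, but 90.8 and 87.9 CPM against 81.4 and 75.7 CPM in neurons. MRPS27, which carries pentatricopeptide repeats, was higher by 0.62 ± 0.19 (adjusted p = 0.0433), a call lost when any 1 HEK293T or neuron cytoplasm library was left out. MRPL30 lost its call without HEK293T P-body replicate 1 (-0.92) and MRPS16 without HEK293T cytoplasm replicate 1 (-0.95). The 8 genes became 3 and 4 without HEK293T P-body replicates 1 and 2, 2 and 5 without HEK293T cytoplasm replicates 1 and 2, 18 and 14 without neuron P-body replicates 1 and 2, and 4 without neuron cytoplasm replicate 1. The 2 higher genes became 0 without any 1 HEK293T library, 6 and 5 without neuron P-body replicates 1 and 2, and 1 without either neuron cytoplasm library. Over all genes, lower calls moved likewise from 1414 to between 672 and 903 without a HEK293T library, to 896 and 1070 without a neuron cytoplasm library, and to 2499 and 2227 without a neuron P-body library. Library size scaling gave 28 lower and 1 higher. Over all genes it gave 3328 lower and 446 higher, against 1414 and 1379 in the main test.

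Genes with known roles in the ribosome were followed in each cell type. MRPL10, MRPL11 and MRPL12 form the stalk that recruits translation factors, and all 3 were depleted in HEK293T, with log2 ratios of -1.15 ± 0.17, -1.30 ± 0.21 and -1.52 ± 0.19. MRPL11 was enriched in liver bud progenitors at 1.31 ± 0.24, while there MRPL10 at 0.21 ± 0.19 and MRPL12 at 0.49 ± 0.39 did not pass the test. The stalk genes passed it in neither neurons nor mouse stem cells. MRPS12, a protein of the decoding site, was depleted in HEK293T (-1.78 ± 0.26) at 2.54 and 2.09 CPM in P-bodies and 6.83 and 9.02 CPM in cytoplasm. MRPL58, which releases stalled chains by hydrolysing peptidyl-tRNA, was depleted in HEK293T (-0.92 ± 0.22) and enriched in liver bud progenitors (0.98 ± 0.33). MRPS36, now regarded as a component of the 2-oxoglutarate dehydrogenase complex, was enriched in liver bud progenitors (1.23 ± 0.44, adjusted p = 0.0182), with 9 to 38 counts per library. In HEK293T its log2 ratio was -0.48 ± 0.23 (adjusted p = 0.0910). The liver bud call of MRPL58 was lost without P-body replicate 2 (0.76) or cytoplasm replicate 1 (0.86), and that of MRPS36 without P-body replicate 2 (1.21) or cytoplasm replicate 2 (0.77). Both liver bud calls were lost with DESeq2 (adjusted p = 0.128 for MRPL58 and 0.147 for MRPS36) and with the single fit of all human libraries (0.083 and 0.0545), which also ended the HEK293T call of MRPL58 (adjusted p = 0.101).

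The 3 MRPS18 genes are paralogs whose products occupy different places in the ribosome. All 3 were depleted in HEK293T, MRPS18A at -1.19 ± 0.08, MRPS18B at -1.14 ± 0.13 and MRPS18C at -1.60 ± 0.12. They came apart in liver bud progenitors, with MRPS18B enriched at 0.70 ± 0.18 and MRPS18C at 1.08 ± 0.17, whereas MRPS18A stood at 54.7 and 58.9 CPM in P-bodies and 50.4 and 58.8 CPM in cytoplasm. The log2 ratio of MRPS18A there was 0.06 ± 0.10, and its fractions overlapped. All 3 had lower ratios in neurons than in liver bud progenitors, with differences of -1.05 ± 0.24, -1.49 ± 0.34 and -1.42 ± 0.44 (edgeR adjusted p = 0.00697, 0.0062 and 0.0371). DESeq2 called 2 of the 3 lower.

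Other genes of mitochondrial translation were examined beside the 78 genes. Over all genes tested, 22.8% were depleted and 19.3% enriched in HEK293T, and 17.1% and 21.4% in liver bud progenitors. Of 5 ribosomal proteins named outside the symbol rule, 4 were depleted and 1 enriched in HEK293T. The enriched one was PTCD3, at 0.40 ± 0.08, and CHCHD1 was the lowest at -1.64 ± 0.18. Of 18 assembly factors, 9 were depleted and 4 enriched in HEK293T, against 1 and 4 in liver bud progenitors. Both enriched counts lay near the share over all genes. DHX30, an RNA helicase of ribosome assembly, was the 1 depleted in liver bud progenitors at -0.95 ± 0.11, and was depleted in HEK293T (-0.94 ± 0.09) and neurons (-1.01 ± 0.13) too. Of 11 translation factors, 7 were depleted and 4 enriched in HEK293T. The 4 were the initiation factors MTIF2 (0.38 ± 0.09) and MTIF3 (0.79 ± 0.14) and the release factors MTRF1 (0.64 ± 0.25) and MTRF1L (0.53 ± 0.08), while TUFM, the elongation factor that delivers tRNA, was depleted at -1.06 ± 0.09. Of the 11, 5 were enriched in liver bud progenitors, among them the same 4 and the elongation factor GFM1. MTIF2 was enriched in neurons (1.34 ± 0.34) and mouse stem cells (0.49 ± 0.14) as well.

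The ribosomal proteins of the cytosol and the nuclear-encoded subunits of oxidative phosphorylation were set beside the 78 genes. In HEK293T, 81 of 85 cytosolic ribosomal protein genes and 71 of 77 oxidative phosphorylation genes were depleted, with medians of -1.62 and -1.39. The liver bud libraries had 73 and 45 enriched, with medians of 0.94 and 0.69. In neurons 38 and 23 were depleted, with medians of -0.47 and -0.63. In mouse stem cells 74 of 86 and 50 of 76 were depleted, with medians of -0.65 and -0.60, where 18 of the 78 mitochondrial ribosomal protein genes were. Between HEK293T and liver bud progenitors 81 and 66 had a lower ratio in HEK293T, and between neurons and liver bud progenitors 65 and 37 had a lower ratio in neurons. The medians of the 3 families lay on the same side of 0 in each cell type, and no test of a difference between families was run.

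**Figure D4:**
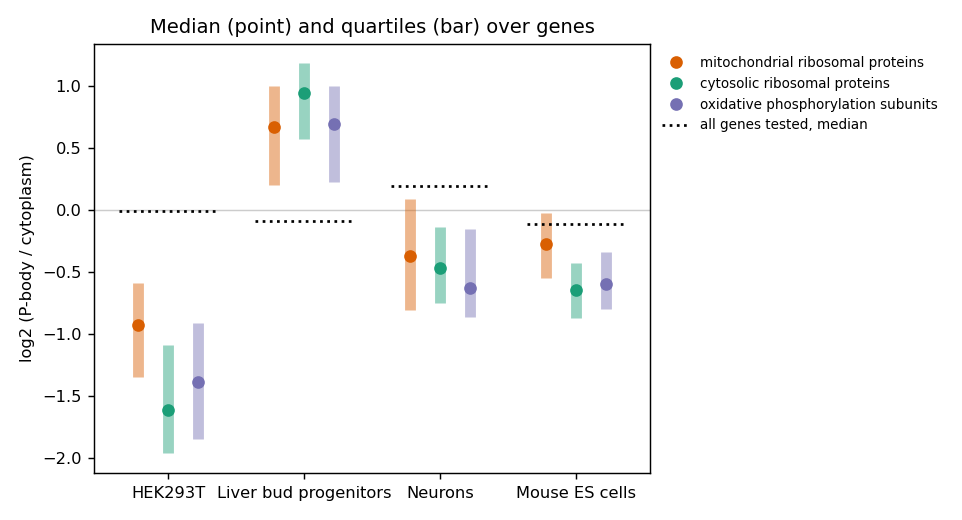
Median (point) and quartiles (bar) of the log2 ratio of P-body to cytoplasm level over mitochondrial ribosomal protein, cytosolic ribosomal protein and oxidative phosphorylation genes in 4 cell types, with the median of all genes tested as a dotted line. All 3 families lie below 0 in HEK293T and above 0 in liver bud progenitors.

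The 78 genes had short transcripts, with a median of 1242 bases in human against 3168 bases over the protein-coding genes of the table. Their base composition was near the average, with a median of 48.2% G+C against 48.6%. Within the 78 genes, Spearman's rho of the log2 ratio with transcript G+C was -0.39 for HEK293T, -0.24 for liver bud progenitors, -0.42 for neurons and -0.31 for mouse stem cells. For the members whose mean level reached 20 CPM it was -0.45 (n = 37), -0.66 (n = 19), -0.53 (n = 13) and -0.48 (n = 15), in the same order. Over protein-coding genes whose mean level reached 1 CPM it was -0.57, -0.63, -0.55 and -0.61. These are descriptions across genes, which share libraries and are not independent replicates. Among liver bud calls, 20 of 26 genes under 45% G+C were enriched, against 18 of 33 between 45% and 55% and 2 of 19 above 55%. Other protein-coding genes in the same ranges had 3423 of 5199, 857 of 4142 and 157 of 3698 enriched. In all ranges of G+C and length given here, the other genes had a mean of at least 1 CPM, while the 78 genes entered at any level. Below 45%, the median liver bud log2 ratio of the mitochondrial ribosomal protein genes was 0.76, near the 0.67 of the other genes. Between 45% and 55% the medians were further apart, at 0.66 and -0.08, and so were those above 55%, at 0.27 and -0.55. In HEK293T 17 of 26 genes under 45% G+C were depleted, with a median log2 ratio of -0.71. Other protein-coding genes of that composition had 796 of 4871 depleted and a median of 0.47. Between 45% and 55%, 28 of 33 were depleted, against 1543 of 3730 other genes, with medians of -0.93 and -0.20. Above 55% G+C, 18 of 19 were depleted, against 2180 of 3136 other genes, with medians of -1.26 and -0.94. Among transcripts shorter than 1500 bases, the 48 mitochondrial ribosomal protein genes had a median of -0.95 and other protein-coding genes -1.03 in HEK293T, and 0.65 against 0.41 in liver bud progenitors. Among transcripts of 1500 bases or more, the other 30 genes had a median of -0.77 against -0.0025 for other protein-coding genes in HEK293T, and 0.72 against 0.03 in liver bud progenitors.

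**Figure D5:**
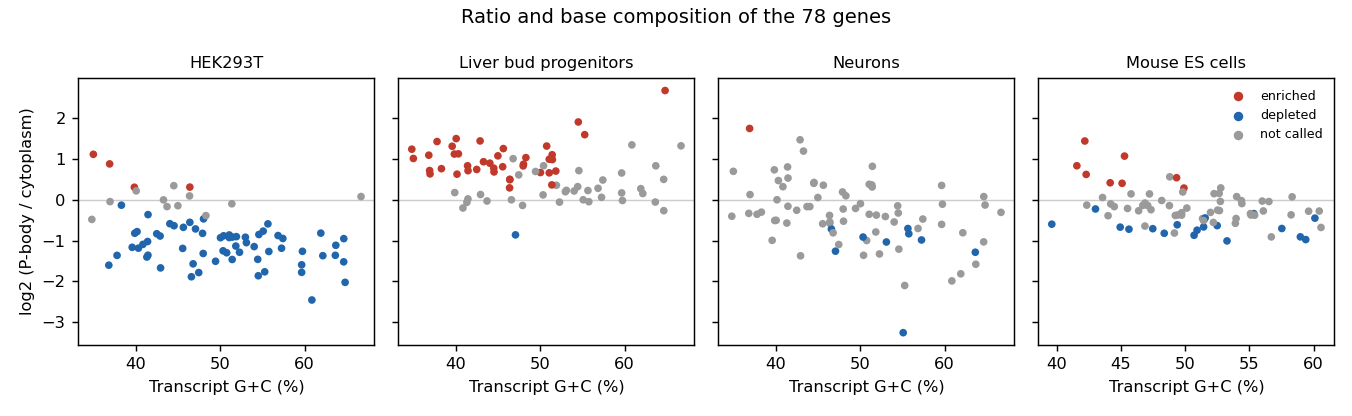
log2 ratio of P-body to cytoplasm level (vertical axis) against G+C content of the representative transcript in % (horizontal axis) for the 78 genes, with a panel for each cell type. Colours mark enriched, depleted and uncalled genes. In liver bud progenitors the enriched genes lie mostly under 55% G+C.

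Transcript starts were compared as well, since cytosolic ribosomal protein messenger RNAs begin with a C followed by a run of pyrimidines. In RefSeq start sites on GRCh38, a C followed by 4 bases that were each C or T stood at the start of 5 of 69 mitochondrial ribosomal protein genes (7.25%) on the sense strand. It stood there in 44 of 67 cytosolic ribosomal protein genes (65.7%) and in 4.80% of 14049 protein-coding genes. The 5 were MRPL44, MRPL45, MRPL53, MRPS27 and MRPS33.

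Across cell types, the order of the 78 genes was little shared. Spearman's rho between the log2 ratios of HEK293T and liver bud progenitors was 0.08, between HEK293T and neurons 0.39 and between HEK293T and mouse stem cells 0.18. It was 0.27 between liver bud progenitors and neurons, both labelled polyA RNA. With mouse stem cells it was 0.26 for neurons and 0.02 for liver bud progenitors. The part of low counts in these values was not tested. The 78 genes were measured in separate libraries of each cell type but share transcript features, and rho is given as a description. The ratio was lowest in HEK293T of the 3 human cell types for 59 genes and highest in liver bud progenitors for 70. The matching shares over all genes were not counted, so these counts are not read as a trait of the 78 genes. 2 genes, MRPL41 and MRPS5, were called in no cell type. MRPL41 had 0 to 60 counts per library. MRPS5, counterpart of bacterial S5, had log2 ratios between -0.17 and -0.03 with 122 to 724 counts per library, and its SE was at most 0.25.

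Some counts could include reads of other genes. In the human annotation 32 of the 78 genes overlap another counted gene, 8 of them on the same strand, and 36 have named pseudogenes. The 32 overlapping genes had a median log2 ratio of -1.09 in HEK293T and 0.54 in liver bud progenitors, and the other 46 genes -0.89 and 0.71. The 46 genes alone gave 34 depleted and 4 enriched in HEK293T, and 25 enriched in liver bud progenitors.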

How the data were processed

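The deposited tables held whole-number read counts per gene, made by the authors against hg38 and mm10 with refGene annotation. The study names an nf-core pipeline with salmon for total RNA and hisat2 with featureCounts for Smart-seq data, and which of these made the polyA columns is not given in the sources used here. Every gene had at least 10 counts in total. Tables of fold changes and p-values from the authors' own DESeq2 comparisons were not used. Labels gave 2 replicates per group, described by the study as independent samples, with n = 2 in every group.

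Genes with 0 counts in all libraries compared were dropped. P-bodies and cytoplasm were compared with edgeR 4.0.16 (R 4.3.3, quasi-likelihood test, two-sided, TMM) over all genes in the 4 libraries of a cell type, and differences between cell types as an interaction in 8 libraries. P-values were adjusted by Benjamini-Hochberg. Errors of log2 ratios are SE from the test statistic. Alternatives were DESeq2 1.42.0, RLE factors, library size only, filterByExpr, removal of ribosomal RNA genes, a replicate block, a single human fit and leaving out each library. The test was checked on simulated counts with the same spread in every library and changes only in well-counted genes. That check does not cover the wider spread of the neuron P-body libraries or genes with low counts. Named genes were the 5 highest and 5 lowest called genes (3 for differences) whose mean reached 20 CPM and whose fractions did not overlap, the MRPS18 and stalk genes, MRPS12, MRPL58, MRPS36 and genes called alike in all 4 cell types. Members and lists were chosen with earlier results of these data known. GENCODE annotation gave transcript features for all 78 genes in both species.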

Additional observations from a re-analysis of the deposited data

Results flagged for a closer look

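The P-body to cytoplasm ratio differed between cell types by a test of the difference itself (edgeR interaction). It was lower in HEK293T than in liver bud progenitors for 61 of the 78 genes, where 12.5% of all genes tested were lower. The log2 differences were -2.46 for MRPS18C, -2.24 for MRPL13 and -1.70 for MRPL51. The ratio was lower in neurons than in liver bud progenitors for 23, where 8.50% of all genes tested were lower. Differences were -1.09 for MRPL17, -1.07 for MRPL42 and -1.04 for MRPS11, and library size scaling ended the calls of MRPL17 and MRPS11. Between HEK293T and neurons the ratio was lower in HEK293T for 8 and higher for 2, where 6.35% and 6.19% of all genes tested were. Differences were -1.06 for MRPL30, -1.02 for MRPS16, -0.87 for MRPS21 and 0.62 for MRPS27, whose call filterByExpr ended. RNA type differed in both comparisons with HEK293T and cannot be told apart from cell type.

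HEK293T and mouse stem cells were called in opposite directions for 4 genes, MRPL47, MRPS2, MRPS25 and MRPS31. Of these, MRPS2 (log2 -1.26 in HEK293T and 0.53 in mouse) and MRPS25 (-0.72 and 0.40) reached a mean of 20 CPM in mouse cells. Fractions of these 2 genes did not overlap in either cell type. The mouse call of MRPS25 was lost with DESeq2 (adjusted p = 0.077), without P-body replicate 1 or cytoplasm replicate 2, and with library size scaling, which turned it to -0.01. That of MRPS2 was lost with library size scaling (0.13). The difference between the species was not tested.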

How the results depend on the processing

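Medians of the 78 genes kept their direction under every alternative, and library size scaling, which moved the median of all genes by between -0.43 and 0.35, left the gap between the 78 genes and all genes nearly as it was (HEK293T -0.92 and liver bud 0.76 in both). With library size only, 2 genes were enriched in HEK293T (median -1.06), 2 depleted in liver bud progenitors (median 0.48), 4 enriched in neurons, and 3 enriched and 52 depleted in mouse stem cells (median -0.68). The neuron to liver bud difference then gave 1 higher and 10 lower (median -0.59) and the HEK293T to neuron difference 1 higher and 28 lower (median -0.78). In mouse cells MRPL45 (-0.12), MRPS18B (-0.25) and MRPS25 (-0.01) changed sign. DESeq2 called 26 enriched in liver bud progenitors, 0 enriched in neurons, 7 depleted in mouse cells and 13 lower in neurons than in liver bud progenitors. Over all genes DESeq2 called 3702, 3094, 1803 and 1502 in the same order, against 4708, 3220, 3271 and 1892 with edgeR. With filterByExpr, which tests fewer genes, the gap to all genes went from -0.56 to -0.23 in neurons, from -0.17 to -0.30 in mouse cells and from -0.18 to -0.30 for HEK293T minus neurons, and 2 were depleted in liver bud progenitors, 2 enriched in neurons, 28 depleted in mouse cells, 1 higher in neurons than in liver bud progenitors, and 1 higher and 15 lower in HEK293T than in neurons. A single human fit gave 2 enriched in HEK293T (median -0.80), 6 enriched and 28 depleted in neurons, and 4 higher in HEK293T than in neurons. Where not stated, the cause was not tested.

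Same-numbered libraries of the 2 fractions did not deviate together (r from -0.01 to 0.09 over genes). The labels do not say whether they came from the same preparation, and an r near 0 cannot exclude that they did. The replicate block gave 2 enriched in neurons and 4 higher in HEK293T than in neurons, ended the calls of MRPL1 in neurons and of MRPS30 and MRPL42 in HEK293T, and moved no other count of the 78 genes by over 1.5 times. Leaving out a library, with the lone sample assumed to vary like the other groups, gave 2 to 5 enriched in HEK293T, 0 to 5 enriched and 4 to 17 depleted in neurons, and 7 to 16 depleted in mouse cells. It gave 8 to 37 lower in neurons than in liver bud progenitors, and 0 to 6 higher and 2 to 18 lower in HEK293T than in neurons. In each library 3 counts corresponded to between 0.167 and 0.471 CPM, and the median of the 78 genes had 46 to 270 counts.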
